A study of Mus musculus with 4 samples.

Results

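Klk6 mature oligodendrocytes are a small group of myelinating cells that came through a sort for TdTomato-labelled cells of mouse frontal cortex and hippocampus. They were chosen by measured counts: a cell had to hold 200 to 6000 genes, under 30% mitochondrial UMIs (unique molecular identifiers, 1 per captured RNA molecule), at least 1 Mog UMI, at least 2 Klk6 UMIs, under 2 Enpp6 UMIs and at most 1 UMI of Gad1 and Gad2 together. The rule found 255 cells among 26201 kept cells (0.973%) and among 6513 cells that met every part of it but the Klk6 threshold (3.92%), called Mog cells here. All 10 libraries held at least 1.

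Oligodendrocytes wrap axons in myelin, a stack of lipid-rich membrane that holds proteins such as Mbp and Mog, and their mature forms fall into several transcriptional states. A state known for Klk6, Hapln2 and Anln is abundant in the white matter of the spinal cord, and another, known for Ptgds and Apod, is common in the grey matter of the forebrain. Klk6 encodes kallikrein-related peptidase 6, a secreted serine protease that can cut myelin proteins and receptor ectodomains.

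The study sorted TdTomato-positive cells from Nkx2.1-Cre mice that carry the Ai14 reporter, with intact Grin1 (wild type, WT) or with floxed Grin1 on both alleles (null), to ask how this obligate NMDA receptor subunit shapes the interneurons that arise in the medial ganglionic eminence. Cre acts in the Nkx2.1 lineage, whose embryonic progenitors also give rise to oligodendrocyte precursors, so floxed alleles were intact in cells outside that lineage. The mice were of both sexes, littermates aged postnatal day 18 to 20, and several were pooled per session, so a library is not 1 animal. Tetrodotoxin, APV and Actinomycin-D were present while tissue was dissociated in both genotypes, and cells positive for TdTomato and DRAQ5 and negative for DAPI were collected.

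There were 3 WT libraries and 2 null libraries from each region. Replicate 1 of each group used 10x chemistry version 2, whereas the remaining replicates used version 3, and these replicate numbers were assigned from the number of cells behind each barcode suffix. The libraries held 1488601 UMIs (null cortex replicate 1) to 47338167 UMIs (null hippocampus replicate 2). Counting intervals are 95% intervals and cover counting error alone, not the spread between animals. In all, 95 barcode sequences occurred in more than 1 library, 1 Klk6 cell carried such a sequence, and none was shared between Klk6 cells of different libraries.

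The Klk6 cells were unevenly spread. WT cortex gave 28, 71 and 17 cells in replicates 1, 2 and 3, WT hippocampus gave 15, 10 and 5, null cortex gave 1 and 85 in replicates 1 and 2, and null hippocampus gave 3 and 20. In 7 libraries there were at least 10 Klk6 cells, and gene levels are CPM (the counts-per-million scale, a gene's UMIs over all UMIs) of the summed cells in each of these 7. The 7 sums hold 1468673 UMIs. Klk6 cells had a median of 6352 UMIs and 2255 genes per cell, against 4157 UMIs in Mog cells with no Klk6 UMI.

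Klk6 counts per member were low, which bears on how the group is bounded. The median was 3 UMIs and the highest 36; 86 cells had exactly 2, 82 had 3 to 4 and 87 had at least 5. Just outside the threshold lay 278 Mog cells with 1 Klk6 UMI, and 5980 had none. Among 9660 interneurons (Gad1 and Gad2 at 4 UMIs or more, median 8889 UMIs) 6 had at least 2 Klk6 UMIs (0.0621%). Scrublet marked 402 barcodes as doublets over all libraries (1.49%, at an expected rate set to 0.06), and none of the 255 was among them. It marked few where most members lay, 1 of 3851 barcodes in WT cortex replicate 2 and 20 of 2898 in null cortex replicate 2. The absence of marked members thus says little about doublets among them.

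The other 4 marker genes of the group, Hapln2, Anln, Apod and Pmp22, were not part of the rule and were high in the Klk6 cells. Hapln2, a link protein of the hyaluronan matrix around nodes of Ranvier, ran over the 7 libraries at 363 to 763 CPM (median 489) in Klk6 cells and at 47.2 to 179 CPM (median 119) in Klk6-negative Mog cells. Anln, an actin-binding protein that scaffolds septin filaments in myelin, ran at 233 to 689.7 CPM (median 533) against 71.6 to 290 CPM (median 121). Apod, a lipid-carrying lipocalin, ran at 1502 to 2672 CPM (median 1896) against 533 to 937 CPM (median 634). For Hapln2 and Apod every library of Klk6 cells lay above every library of Klk6-negative cells, while the ranges of Anln overlapped although it was higher within each of the 7 libraries.

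Pmp22, a 4-pass membrane protein best known from the compact myelin of peripheral nerve, stood apart in size. In Klk6 cells it was at 181, 302 and 74.4 CPM in WT cortex replicates 1, 2 and 3, at 131 and 107 CPM in WT hippocampus replicates 1 and 2, at 745 CPM in null cortex replicate 2 and at 385 CPM in null hippocampus replicate 2. In Klk6-negative cells of the same libraries it was at 8.07 to 44.0 CPM (median 14.1). The lowest Klk6 library lay above the highest Klk6-negative library, and both null libraries had more Pmp22 than any WT library.

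Library by library, these 4 genes were higher in Klk6 cells in 7 of 7 libraries. The change on the log2 scale, from edgeR with the library as a block, was 2.27 ± 0.11 (standard error) for Hapln2 (adjusted p = 8.6e-84), 1.65 ± 0.11 for Anln (adjusted p = 6.73e-44), 1.42 ± 0.09 for Apod (adjusted p = 5.62e-48) and 3.91 ± 0.16 for Pmp22 (adjusted p = 1.41e-134). Standard errors of edgeR log2 changes, here and below, are approximate: the size of the change over the square root of the test's F statistic. All 4 passed the filter on low counts and were called higher, against 3.64% of all genes tested. These 4 genes were chosen with earlier results of these data known, so their calls describe the group and are no independent test. With both groups limited to cells of 2000 to 8000 UMIs, which left 5 libraries, the changes were 1.93, 1.29, 1.28 and 3.60 in the same order.

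The genes of the rule are given without a test, since they chose the cells. Klk6 averaged 826 CPM over the 7 libraries (lowest 489, highest 1279). Mog, a myelin surface protein, was at 4785 CPM in Klk6 cells and 4663 CPM in Klk6-negative cells. Enpp6, a marker of newly formed oligodendrocytes, was at 82.4 and 44.8 CPM. Of the enzymes of GABA synthesis, Gad1 had 3 UMIs in all Klk6 sums (1.02 against 5.48 CPM) and Gad2 had 8 (20.0 against 6.16 CPM). The Gad2 mean rested on WT hippocampus, at 53.3 ± 75.4 CPM (SD, n = 2). In WT cortex, null cortex and null hippocampus Gad2 was at 6.20, 3.07 and 11.9 CPM, and it was higher in 4 of 7 libraries and lower in 3.

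In mm10, Klk6 lies on chromosome 7 at 43824499 to 43832030 on the plus strand. Hapln2 lies on chromosome 3 at 88021750 to 88027583, Anln on chromosome 9 at 22332012 to 22389188 and Apod on chromosome 16 at 31296192 to 31314808, all on the minus strand. Pmp22 lies on chromosome 11 at 63128982 to 63159547 on the plus strand, so the 5 marker genes are on 5 chromosomes.

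Counted by cell, the same markers reached most members. Hapln2 had a UMI in 88.2% of Klk6 cells, 22.6% of Klk6-negative Mog cells and 1.1% of interneurons. Apod had one in 98.0%, 69.3% and 3.24%, Anln in 86.3%, 31.0% and 4.5%, and Pmp22 in 56.1%, 4.20% and 0.849%. With each cell of at least 2000 UMIs thinned to that depth, the share with Hapln2 was 63.4% of 232 Klk6 cells and 14.5% of 4246 Klk6-negative cells. The share with Pmp22 was 40.5% and 2.45%. At 2000 UMIs per cell the Klk6 cells thus had the larger share for both genes. These shares pool cells over libraries whose mix differed: 202 of 255 Klk6 cells and 1561 of 5980 Klk6-negative cells were cortical. The part of region and library in these shares was not tested.

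Genes of the whole lineage were present. Mbp had a UMI in all 255 cells, but also in 35.9% of interneurons. The lineage factors Olig1 and Sox10 had one in 88.2% and 62.0% (interneurons 4.92% and 2.28%), and Pdgfra, the receptor that marks precursors, in 1 cell. Among the nuclear-encoded genes that took most UMIs in Klk6 cells were the long non-coding RNA Malat1 (92867 CPM), the ferritin heavy chain Fth1 (26730.4 CPM), Mal, Mbp, the actin-binding peptide gene Tmsb4x, Cldn11, Cnp, the transferrin gene Trf and Mobp. Of these, Fth1, Trf and Tmsb4x rose against Klk6-negative cells, Mbp, Cnp and Mobp fell, and Malat1, Mal and Cldn11 were not called.

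Members and other Mog cells were also laid out by their Klk6 UMIs, the count that the rule uses, so the levels along these steps are a description. Pooled over all libraries, Hapln2 was at 85.1, 335, 465, 544 and 793 CPM in cells with 0, 1, 2, 3 to 4 and at least 5 Klk6 UMIs. Over the same steps Pmp22 was at 15.2, 108, 168, 324 and 753 CPM, and S100b, a calcium-binding protein, at 165, 513, 913, 1193 and 1503 CPM. Opalin, a membrane glycoprotein of myelin-forming oligodendrocytes, was at 1503, 936, 687, 367 and 219 CPM.

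The libraries were mixed unevenly over the steps. Null cortex replicate 2 gave 15 of the 86 cells with 2 Klk6 UMIs, 22 of the 82 with 3 to 4 and 48 of the 87 with at least 5. Without this library, an alternative chosen after seeing the data, Hapln2 was at 80.7, 320.1, 482, 490.3 and 583 CPM, Pmp22 at 11.6, 91.2, 146, 260 and 304 CPM, S100b at 167, 532, 930.4, 1418 and 1648 CPM and Opalin at 1467, 926, 692, 336 and 342 CPM, so Opalin was no lower at the top step than at 3 to 4. Median depth over all libraries also differed along the steps, at 4157, 5440.5, 5547, 6056.5 and 7375 UMIs per cell, and neither its part nor that of counting error in Klk6 was tested.

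Across the whole transcriptome, Klk6 cells were compared with Klk6-negative Mog cells of the same library, to find what else the Klk6-rich cells share. Of 8599 genes tested, 313 were called higher (3.64%) and 562 lower (6.54%), called meaning an adjusted p below 0.01 with a log2 change of 0.144 or more in either direction. Null cortex replicate 2, with 85 of the 255 cells, weighed on these counts: without it 174 genes were higher and 300 lower, and 467 of its 474 calls were among those made with it. A gene could pass the filter on low counts through the sums of 1 class alone, and genes with few UMIs in the Klk6 sums could hardly be called other than lower, which limits the counts of falls here and in the lists below. In WT libraries alone 109 were higher and 228 lower, and without the library as a replicate block 52 and 100.

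Of the 12 largest rises that moved the same way in 7 of 7 libraries, among them Pmp22 and Hapln2, that of Nkx2-9, a homeodomain transcription factor, was the largest. It was at 11.9 to 93.7 CPM (median 53.3) in Klk6 cells and at 0 to 5.08 CPM (median 2.33) in Klk6-negative cells, with no overlap, and rose by 4.43 ± 0.33 on the log2 scale (edgeR adjusted p = 1.2e-37). The gene had a UMI in 23.9% of Klk6 cells, and in 5% of interneurons against 0.970% of Klk6-negative cells. It lies on chromosome 12 at 56611389 to 56613284.

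Anxa5 and S100b were also among the 12. Anxa5, an annexin that binds phosphatidylserine when calcium is present, was at 95.4 to 489 CPM (median 261) against 17.5 to 66.0 CPM (median 26.4) and rose by 2.86 ± 0.15 (edgeR adjusted p = 1.69e-82). S100b was at 405.3 to 2984 CPM (median 1126) against 83.8 to 404.7 CPM (median 148) and rose by 2.58 ± 0.10 (edgeR adjusted p = 4.55e-134). S100b differed widely between libraries, with WT hippocampus replicate 2 highest and WT hippocampus replicate 1 lowest in Klk6 cells, and the ranges of both genes lay above those of Klk6-negative cells.

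Sepp1 and Plin3 were among the 12 as well. Sepp1, which encodes selenoprotein P, the carrier of selenium, was at 319.7 to 1387 CPM (median 894) against 90.3 to 273 CPM (median 205) and rose by 2.31 ± 0.11. Plin3, a lipid droplet coat protein, averaged 239 against 46.5 CPM and rose by 2.44 ± 0.14. For both genes the lowest Klk6 library was above the highest Klk6-negative library.

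Tmem38b, a cation channel of the endoplasmic reticulum, averaged 102 against 22.1 CPM, and Cdkn1c, an inhibitor of cyclin-dependent kinases, 244 against 55.8 CPM. St3gal5, the synthase of the ganglioside GM3, averaged 34.7 against 7.53 CPM, Col6a2, a collagen VI chain, 38.0 against 9.58 CPM, and Usp31, a ubiquitin protease, 81.2 against 22.6 CPM. These 5 rose by 2.1, 2.07, 2.06, 2.05 and 2.03, and the ranges of Cdkn1c, St3gal5 and Col6a2 overlapped between the groups. With cells of 2000 to 8000 UMIs alone, in 5 libraries, Nkx2-9, Anxa5, S100b, Sepp1 and Plin3 changed by 3.95, 2.36, 2.29, 1.99 and 2.02.

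**Figure D1:**
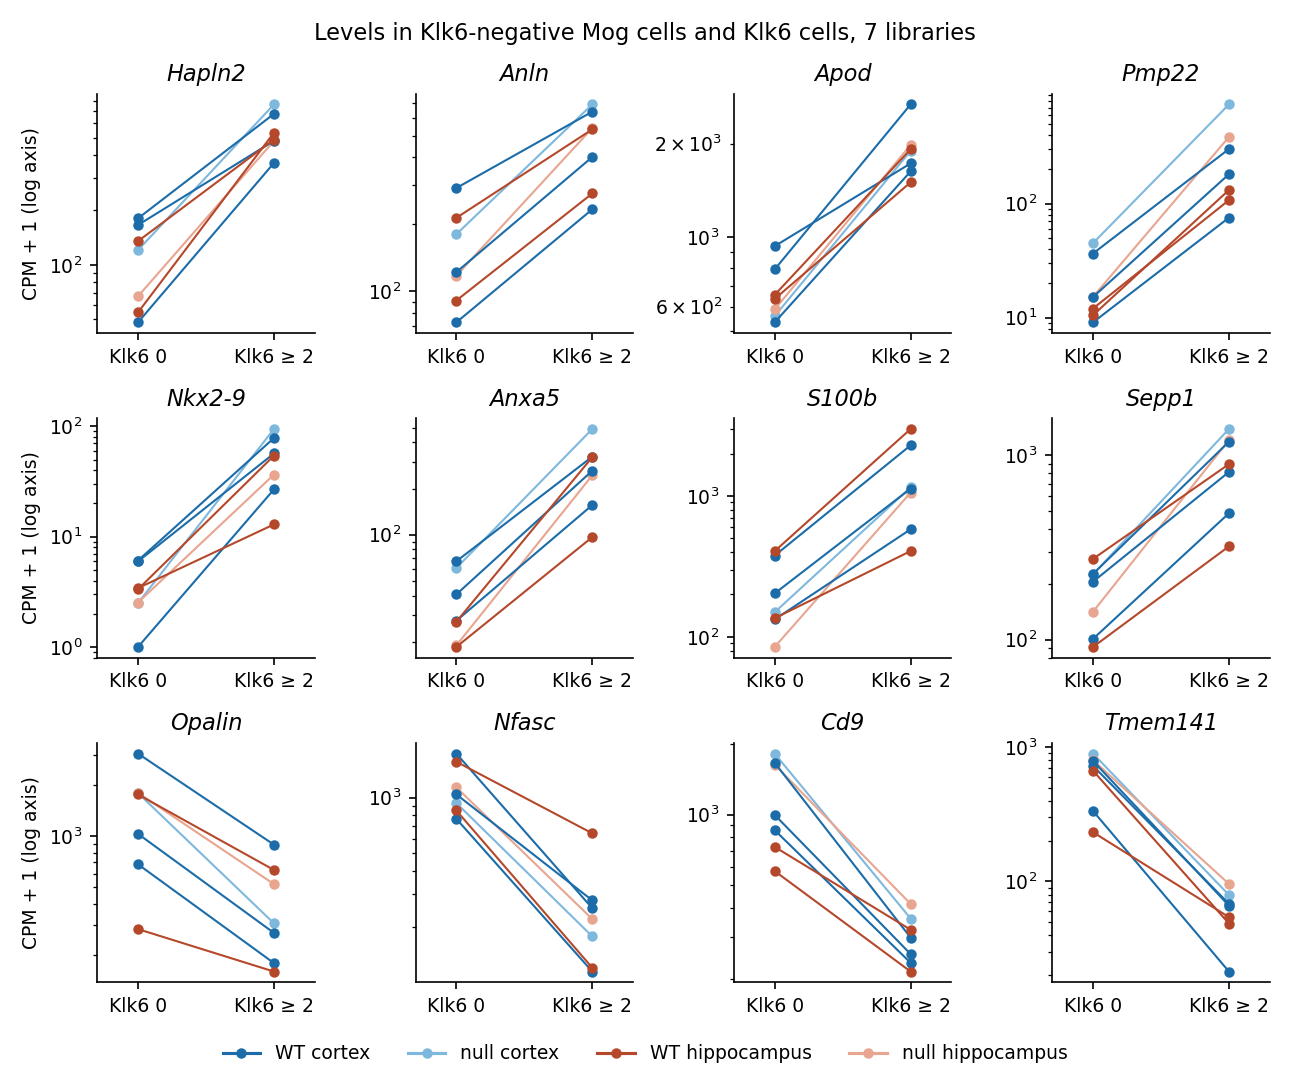
Each panel plots 1 gene as CPM plus 1 on a log axis, in Klk6-negative Mog cells (left) and Klk6 cells (right) of the same library, with a line for each of 7 libraries coloured by group. The 8 genes of the upper panels are higher and the 4 genes of the lowest panels lower in Klk6 cells in every library shown; Pmp22 ranges from 8.07 to 44.0 CPM on the left and from 74.4 to 745 CPM on the right.

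The largest falls were of genes with few or no UMIs left in Klk6 cells. Prom1, a membrane glycoprotein of protrusions, had 0 UMIs in the 7 Klk6 sums and averaged 52.9 CPM in Klk6-negative cells, which makes it at least 25.9-fold lower against a floor of 3 UMIs over the summed group (2.04 CPM). Notch1, a receptor that holds back precursor differentiation, also had 0 UMIs against 20.8 CPM and was at least 10.2-fold lower. Neither gene gave a UMI in any of the 7 libraries of Klk6 cells.

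Marcks, an actin-linked substrate of protein kinase C, had 12 UMIs in Klk6 cells (6.71 CPM) against 107 to 439 CPM (median 257) in Klk6-negative cells and fell by 4.97 ± 0.26 on the log2 scale. Cxcl12, a chemokine, had 3 UMIs (1.29 CPM, interval over the pooled sums 0.421 to 5.97) against 119 CPM. Tmem178 had 1 UMI (0.738 CPM, interval 0.0172 to 3.79) against 62.0 CPM.

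Of the remaining falls of the 12, Bcan, the proteoglycan brevican, Ptprz1, a receptor phosphatase of precursors, Lmo2, a transcriptional cofactor, and Fam181b had 1 UMI each in Klk6 cells (interval 0.0172 to 3.79 CPM for each) against 30.8, 23.9, 20.2 and 20.4 CPM. Nkain4 and the neuropeptide gene Cck had 2 UMIs each (interval 0.165 to 4.92 CPM) against 28.4 and 30.1 CPM, and Rasal1, which switches off Ras, had 3 (interval 0.421 to 5.97 CPM) against 46.3 CPM. Several were also low in Mog cells with no Klk6 UMI and at least 5 Ptgds UMIs. There Cck, Fam181b, Nkain4, Ptprz1 and Bcan averaged 5.95, 6.50, 8.01, 10.9 and 13.5 CPM, while Lmo2 and Rasal1 averaged 18.5 and 48.5 CPM. All but Rasal1 went without a test against those cells.

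Among structural myelin genes, 2 of 23 tested rose and 12 fell, where 6.54% of all genes tested fell, with a median log2 change of -0.35 beside -0.09 over all genes tested. Opalin, at 159.9 to 889 CPM (median 307) against 284 to 3037 CPM (median 1750.1), fell by 1.97 ± 0.11. Nfasc, whose glial form anchors paranodal loops, fell by 2.41 ± 0.12 (257 against 1144 CPM) and the tetraspanin Cd9 by 2.07 ± 0.12 (299 against 1181 CPM), each lower in 7 of 7 libraries. Nfasc and Cd9 had no overlap between the groups, whereas the libraries of Opalin overlapped.

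Other myelin genes moved less. Mag, which faces the axon, fell by 0.76, Tspan2 fell by 0.61, Mbp fell by 0.44, Mobp fell by 0.37 (lower in 6 of 7 libraries) and Cnp fell by 0.36, while Cldn11, a claudin of myelin tight junctions, was at 7227 against 7256 CPM and not called. The 2 that rose were Gpm6b, a membrane glycoprotein (2717 against 1273 CPM), and the gap junction gene Gjb1. Summed over the 24 listed genes, structural myelin took 162540 ± 27174 CPM in Klk6 cells and 162999 ± 29653 CPM in Klk6-negative cells (SD, n = 7), so the total differed by less than the spread between libraries.

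In the list of septins and the myelin cytoskeleton, 6 of 18 tested rose and 3 fell (median 0.04), beside 3.64% and 6.54% of all genes tested. Sept8, a septin of the filaments that stiffen the innermost myelin layer, was at 479.6 to 1013 CPM (median 856) against 192 to 425 CPM (median 269.6) and rose by 1.58 ± 0.10 with no overlap. Its partner Anln rose as given above, and Sept9 rose by 1.59 at low counts (22 against 6.23 CPM, higher in 5 of 7 libraries). Tmsb4x, which binds actin monomers, rose by 0.51 and the microtubule destabiliser gene Stmn1 by 0.57, while Tppp, which promotes tubulin polymers, fell by 0.62.

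Of genes of the node, paranode and adhesion, 2 of 17 tested rose and 6 fell (median -0.34; of all genes tested, 3.64% rose and 6.54% fell). The rises were Hapln2 and Dscaml1, and the falls were Nfasc, Mag, Bcan, Tnr, Kirrel3 and Lsamp, of which Bcan, Tnr and Kirrel3 had 1, 3 and 5 UMIs in the Klk6 sums and were open to a fall alone. Jam3 and Cadm4, both adhesion molecules of the oligodendrocyte, stood at 336 against 395 CPM and 285 against 323 CPM and were not called. Kirrel3, an immunoglobulin-domain adhesion protein, averaged 20.0 CPM in Klk6-negative cells.

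Of 22 genes of cholesterol synthesis, Msmo1, a sterol oxidase, was called, higher by 0.35, and none was called lower (median 0.00), near the 3.64% called higher over all genes tested, of which 6.54% were called lower; Hmgcs1, an early enzyme of the pathway, was at 1856 against 1565 CPM. Of 20 tested genes of fatty acid and glycolipid synthesis, 2 rose and 3 fell (median 0.04), beside the same shares: Elovl5, a fatty acid elongase, rose by 0.82 and Aspa, which frees acetate from N-acetylaspartate, by 0.43, while Elovl6 fell by 0.92, Acsl3 fell by 0.53 and Fads1 fell as well. Ugt8a, the enzyme that makes galactosylceramide, was at 2355 against 2180.2 CPM and not called.

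Markers of earlier stages could pass the filter on low counts through their Klk6-negative sums alone, which limits what their counts show. Of 19 markers of newly formed oligodendrocytes and committed precursors in the files 13 were tested, and 10 of these fell (median -2.1), where 6.54% of all genes tested fell and 3.64% rose; Gpr17, a receptor of committed precursors, was at 12.8 against 84.7 CPM, Tcf7l2, a Wnt effector of early differentiation, at 1.87 against 39.9 CPM with 4 UMIs, and Rras2 at 6.21 against 46.9 CPM. Bcas1, which is shared by early myelinating cells, was not called at 338 against 313 CPM. Of 16 markers of precursors in the files 8 were tested, and 4 fell (median -0.95), beside the same shares: Gpr17, Ptprz1 and C1ql1, the last 2 with 1 and 2 UMIs in the Klk6 sums and open to a fall alone, and Sox2, which fell by 0.66.

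Of 11 tested markers of the myelin-forming stage 8 fell and 1 rose (median -1.66), where 6.54% of all genes tested fell and 3.64% rose. Tmem141 was at 20.4 to 94.9 CPM (median 65.1) against 231 to 893 CPM (median 724) and fell by 3.49 ± 0.16. Ctps, which makes CTP for lipid synthesis, fell by 2.88 and Birc2, an inhibitor of apoptosis, fell by 2.83, each without overlap between the groups. The rise was Nkx2-9.

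Of 27 tested markers of late mature oligodendrocytes, 11 rose and 7 fell (median 0.22), beside 3.64% and 6.54% over all genes tested. Among the 11 were Hapln2 and Apod, markers of the group chosen with earlier results known, and S100b, Anxa5 and Sepp1, given above. The count is thus no independent support for the group. Trf, the iron carrier transferrin, rose by 1.19 (5632 against 2271 CPM), Fth1 by 0.79, Mgst3, a glutathione transferase of microsomes, by 2.40 (6 of 7 libraries) and Car2, a carbonic anhydrase, by 0.31. Mgst3 also had a UMI in 81.3% of interneurons, against 51.8% of Klk6 cells and 9.90% of Klk6-negative cells. Hopx, a homeodomain protein without DNA binding, rose by 2.85 with 25 UMIs, higher in 4 of 7 libraries, and had a UMI in 8.63% of Klk6 cells, 0.819% of Klk6-negative cells and 19.0% of interneurons.

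The 7 late markers that fell were the prostaglandin D synthase gene Ptgds, which fell by 0.86 (lower in 5 of 7 libraries), Opalin, Cst3, Mcam, Adamts4 and the metallothioneins Mt1 and Mt2, the last at 7 UMIs. Cryab, a small heat shock protein, was at 3002 against 2441 CPM and not called. Of 18 tested iron, antioxidant and metal genes, 5 rose (Trf, Fth1, Mgst3, Gstm5 and Prdx1) and 3 fell (Mt1, Mt2 and Mt3), with a median of -0.16, beside 3.64% and 6.54% of all genes tested. Prdx1, a peroxidase, rose by 0.44, and the ferritin light chain Ftl1 was not called at 1323 against 1396 CPM.

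Of 24 tested transcription factors of the lineage, 3 rose and 7 fell (median -0.38), against 3.64% and 6.54% over all genes tested. Etv1, an ETS factor, was at 213 to 562 CPM (median 465) against 66.3 to 198 CPM (median 146) and rose by 1.38 ± 0.12 with no overlap; Hdac11 and Hopx were the other two. Olig1, a factor needed for myelination, fell by 0.87 (887 against 1553 CPM) and the deacetylase Sirt2 fell by 1.28 (1135 against 2577 CPM), both in 7 of 7 libraries. Nkx6-2 and Zeb2 were not called, at 714 against 729 CPM and 536 against 571 CPM.

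Beside Klk6, the list of proteases, inhibitors and their receptors gave 1 rise and 6 falls of 18 tested (median -0.35), where 3.64% of all genes tested rose and 6.54% fell. Serpinb1a, an inhibitor of serine proteases, rose by 2.19 ± 0.21 (61.5 against 16.1 CPM, higher in 6 of 7 libraries). The lysosomal protease gene Ctsl fell by 1.51 (244 against 696 CPM), tissue plasminogen activator Plat fell by 1.06, the metalloprotease inhibitor Timp2 fell by 0.94, and Adamts4, Cst3 and Bace1 fell as well. App, the amyloid precursor protein gene, and the cathepsin gene Ctsb were not called.

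Ion channels, transporters and energy supply gave 6 rises and 5 falls of 22 tested (median 0.20; over all genes tested 3.64% and 6.54%). Hcn2, a channel opened by hyperpolarisation, was at 143 to 575 CPM (median 373) against 28.3 to 241 CPM (median 114) and rose by 1.71 ± 0.12, although its ranges overlapped; it had a UMI in 79.6% of Klk6 cells and 35.3% of interneurons. Ldhb, Kcnk13, Slc1a3, Atp1b3 and Car2 also rose. Slc12a2, a chloride importer, fell by 0.48, Atp1b1 fell by 1.74 and Slc1a2 fell by 2.32, and Ldha fell as well.

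Of 19 tested growth factors and signalling genes, 2 rose and 8 fell (median -0.35), against 3.64% and 6.54% of all genes tested. Pdgfa, a mitogen for precursors, rose by 1.32 (224 against 94.5 CPM) and Tgfa rose with it. Lpar1, a receptor for lysophosphatidic acid, fell by 0.66, Sema6a, a semaphorin that guides axons, fell by 1.49, the neuregulin receptor gene Erbb4 fell by 1.54 and Efnb3 fell by 0.45. Rtn4, the myelin inhibitor Nogo, was not called at 1788 against 1519 CPM.

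Of 8 tested glutamate receptor genes, 2 were called, both lower (median -0.80): the AMPA receptor gene Gria2 fell by 1.87 (13.8 against 57.1 CPM) and Grin2b, with 1 UMI in the Klk6 sums and so open to a fall alone, was the other, where 6.54% of all genes tested fell and 3.64% rose. Of 20 tested immediate early and stress genes, 1 was called, Hspa1a, which fell by 0.87, lower in 5 of 7 libraries (median -0.12), beside the same shares; Jund, Jun, Hsp90aa1 and Hspa8 were not called. The Hspa1a change turned to 0.75 in cells of 2000 to 8000 UMIs and 0.10 in WT libraries. Of 4 tested interferon and antigen presentation genes 1 fell, H2-K1, with 8 UMIs (same shares, median -0.14).

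Markers of other cell types were low in Klk6 cells, with named exceptions. The 17 neuron and interneuron markers summed to 295 ± 131 CPM in Klk6 cells and 559.8 ± 345 CPM in Klk6-negative cells (SD, n = 7). Lamp5, Dlx1, Slc17a7, Slc17a6 and Neurod6 were at 0 in Klk6 cells. The list holds Gad2, which the rule capped together with Gad1 in both classes. Its part of these sums was thus limited by the choice of cells. Of 6 tested, Sst, Npy, Snap25, Syt1 and Meg3 fell (median -2.07), where 6.54% of all genes tested fell and 3.64% rose. The neuronal tubulin gene Tubb3 (129 against 64.5 CPM) rose by 0.98, higher in 6 of 7 libraries. Tubb3 was the highest of the list in Klk6 cells, whereas Meg3, at 231 CPM, was the highest in Klk6-negative cells. The neuron markers moved with the genes that fell, and their part in those falls was not tested.

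The 11 astrocyte markers summed to 94.9 ± 40.3 CPM against 202 ± 166 CPM, with Aqp4, Gja1 and Gjb6 at 0. Of 5 tested, Slc1a2, Clu and Aldoc fell and Slc1a3, a glutamate transporter, rose by 0.96 (61.9 against 29.8 CPM; median -1.27), beside the same shares over all genes. The 11 microglia markers summed to 20.6 ± 23.5 CPM against 27.1 ± 27.6 CPM, with Csf1r, C1qb, C1qc and Tmem119 at 0, and neither of the 2 tested was called (median -0.40).

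Of 14 vascular and choroid plexus markers 13 were at 0 in Klk6 cells, Cldn5, Pecam1 and Ttr among them. Enpp2, the one left, is also made by oligodendrocytes; it was at 1655 against 1724 CPM, not called at a log2 change of -0.19. The 7 Schwann cell markers summed to 291 ± 234 CPM against 28.5 ± 13.7 CPM, nearly all of it Pmp22, which rose; Egr2 was not called (median of the 2 tested 2.65), and Prx and Pmp2, genes of Schwann cell myelin, were at 0. Precursor markers summed to 116 ± 57.5 CPM against 345 ± 97.4 CPM.

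Ptgds Mog cells, with no Klk6 UMI and at least 5 UMIs of Ptgds, were the other mature class compared, and 1123 cells met that rule. Against them, 259 of 4711 genes were called higher in Klk6 cells (5.5%) and 290 lower (6.16%); without null cortex replicate 2 the rises were 163. Ptgds chose the comparison cells and is given with no test, at 784 CPM in Klk6 cells and 3487 CPM in Ptgds cells. 

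The comparison with Ptgds cells uses the same Klk6 sums, and Ptgds cells are part of the Klk6-negative cells, so it adds little that is independent. S100b was at 31.2 to 309 CPM (median 50.3) in Ptgds cells and was higher in Klk6 cells by 3.79 ± 0.16, Anxa5 by 4.11 ± 0.21 and Sepp1 by 3.13 ± 0.16. Pmp22, at 0 to 15.2 CPM (median 9.37) in Ptgds cells, was higher by 4.88 ± 0.22, and Nkx2-9, with 4 UMIs in Ptgds cells, averaged 50.5 against 0.253 CPM. Hapln2, Anln and Apod were higher by 2.75, 2.01 and 1.73, and all of these genes were higher in 7 of 7 libraries.

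Falls against Ptgds cells were led by genes near 0. Sema4f, a semaphorin, had 0 UMIs against 23.5 CPM in Ptgds cells and was at least 11.5-fold lower. Cxcl12, Tmem178 and Rasal1, at 3, 1 and 3 UMIs, stood against 153, 64.6 and 48.5 CPM.

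The lists were also read against Ptgds cells, and the same Klk6 cells are in both comparisons. Structural myelin gave 2 rises and 9 falls of 23 tested (5.5% and 6.16% over all genes), with a median of -0.25 beside -0.03 over all genes. Septins and cytoskeleton gave 6 rises and 1 fall of 17 (median 0.08), node and adhesion genes 2 and 3 of 13 (-0.25), and late mature markers 10 and 8 of 25 (0.08). The group's own markers Hapln2, Anln and Apod are again among these rises. Markers of newly formed cells gave 1 rise and 3 falls of 10 (median -1.16). Precursor markers gave 1 fall of 3, that of Gpr17 (median of the 3 tested -0.58), and myelin-forming markers 1 rise and 6 falls of 10 (median -1.21). Cholesterol synthesis gave 4 rises, Hmgcs1, Idi1, Fdps and Msmo1, and no fall of 21 tested (median 0.24), with Hmgcs1 at 0.47 and Idi1 at 0.50.

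Beside 5.5% of all genes tested that rose and 6.16% that fell, fatty acid and glycolipid genes gave 2 rises and 2 falls of 16 against Ptgds cells (median 0.18), transcription factors 2 and 5 of 17 (-0.31) and proteases 1 and 4 of 12 (-0.15). Channels gave 5 rises and 1 fall of 17 (0.13), iron and antioxidant genes 5 and 3 of 14 (-0.06), and growth factors 1 and 7 of 16 (-0.39). Gria2 fell among 2 glutamate receptor genes tested, and no gene among the 18 tested stress genes and the 2 tested interferon genes was called. Of neuron markers Tubb3 rose and 3 others tested were not called, of astrocyte markers Slc1a3 was tested and rose, of Schwann markers Pmp22, and Enpp2 was not called. No microglia marker was tested.

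**Figure D2:**
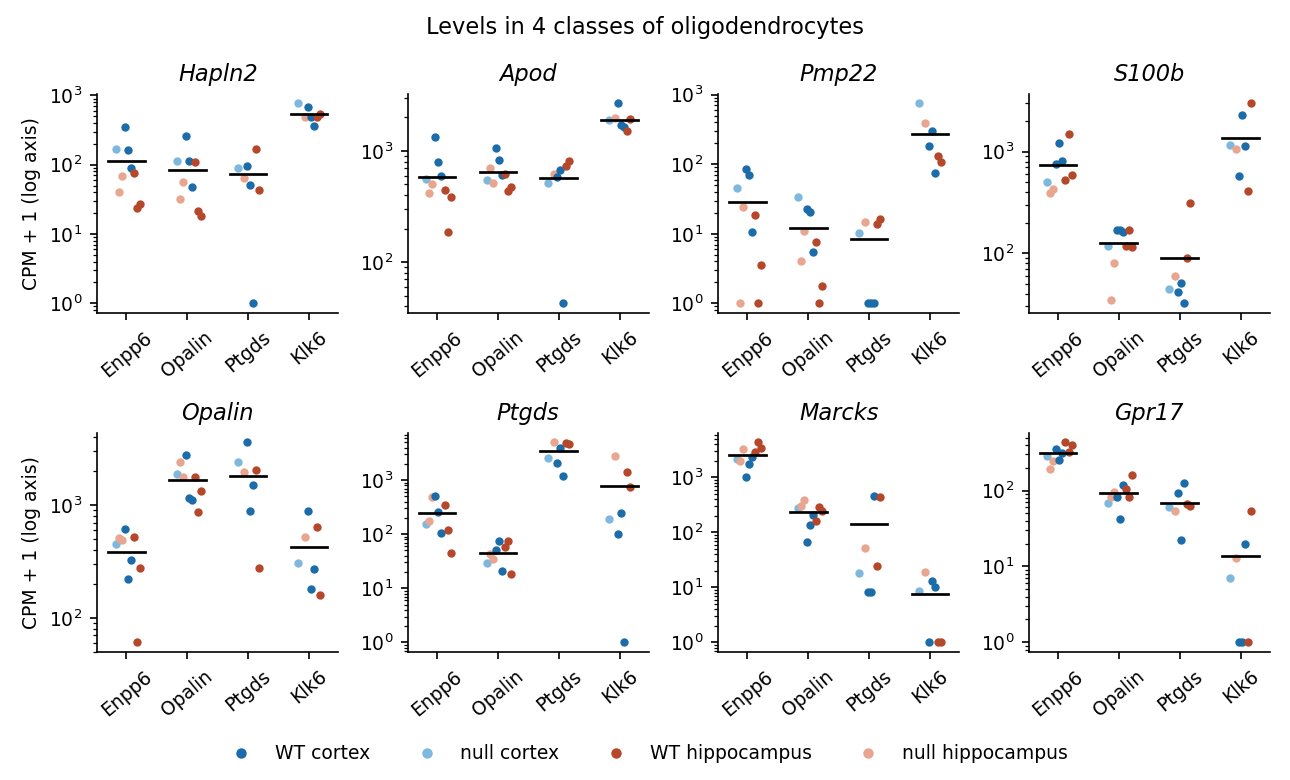
Each panel plots 1 gene as CPM plus 1 on a log axis in 4 classes of cells chosen by Enpp6, Opalin, Ptgds or Klk6 counts, with a point for each library with at least 10 cells of the class and a bar at the mean. Klk6 cells average 1903 CPM of Apod, above 579, 639.9 and 565 CPM in Enpp6, Opalin and Ptgds cells.

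S100b was high in the youngest and in the Klk6 class. Enpp6 cells, the newly formed oligodendrocytes chosen by at least 2 Enpp6 UMIs, had 745 ± 379 CPM (SD, n = 9), Opalin cells low in Ptgds had 125 ± 46.8 CPM (n = 9), Ptgds cells 88.7 ± 98.7 CPM (n = 7) and Klk6 cells 1369.6 ± 932 CPM (n = 7). Klk6 and Enpp6 cells were both high and overlapped. Pmp22 averaged 27.8, 11.1, 7.33 and 275 CPM and Marcks 2574, 229, 144 and 6.71 CPM in the same order, a description with no test.

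Cortex held a larger share of Klk6 cells than hippocampus. Of Mog cells, they made up 12.4% (95% Wilson interval 8.71 to 17.3), 9.81% (7.85 to 12.2) and 4.89% (3.07 to 7.68) in replicates 1, 2 and 3 of the WT cortex. Among Mog cells of the WT hippocampus the share was 1.32% (0.804 to 2.17), 0.610% (0.332 to 1.1) and 0.873% (0.373 to 2.03). The lowest cortical library was above the highest hippocampal library, and no interval of the one region reached into an interval of the other.

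The mean share was 9.03 ± 3.81% in WT cortex and 0.936 ± 0.361% in WT hippocampus (SD, n = 3 each), 9.65 times as high in cortex, a difference of -8.09 points for hippocampus minus cortex. The two-sided exact permutation p was 0.1, the smallest that 3 libraries against 3 can give (0.3 adjusted over the 3 shares compared). Within replicate numbers the differences were -11.1, -9.20 and -4.01 points (exact sign-flip p = 0.25), so the direction was the same with either chemistry. With cells thinned to 2000 UMIs the shares were 7.87% and 0.550%. Cells below that depth were left out, 1809 of 6513 Mog cells over all libraries and 1107 of 1639 in WT hippocampus replicate 2. The rule was then applied anew to the thinned counts, which also let in cells it had left out before, so the set of cells differed. As a share of all kept cells, without thinning, the values were 1.49% and 0.351%, where the libraries of the regions overlapped (exact permutation p = 0.2).

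Ptgds cells were at 13.1 ± 11.7% of the Mog cells from WT hippocampus and 8.94 ± 7.67% of those from WT cortex (n = 3 each, exact permutation p = 0.6). Within replicate numbers, an alternative chosen after seeing the data, hippocampus was higher by 8.78, 2.09 and 1.61 points (exact sign-flip p = 0.25), the opposite direction to the share of Klk6 cells in each of the 3 pairs.

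**Figure D3:**
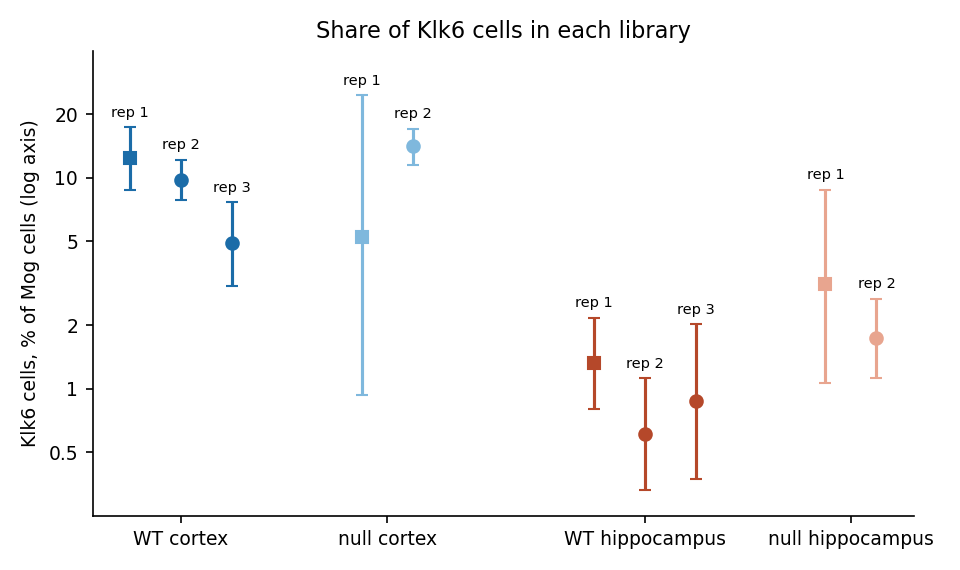
Klk6 cells as a percent of Mog cells on a log axis for each of 10 libraries, with 95% Wilson intervals as bars; squares are libraries of 10x version 2 and circles of version 3. WT cortex lies at 4.89 to 12.4% and WT hippocampus at 0.610 to 1.32%, and null cortex replicate 1, with 1 Klk6 cell among 19 Mog cells, has the widest interval.

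Loss of Grin1 in the lineage was compared next, within each region. In null cortex the share was 5.26% (1 of 19 Mog cells, interval 0.935 to 24.6) in replicate 1 and 14.1% (11.5 to 17.1) in replicate 2. The null mean of 9.67% exceeded the WT mean by 0.641 points, the libraries overlapped and the exact permutation p was 0.8. Thinned to 2000 UMIs, with the cells chosen anew, the means were 12.0% and 7.87%, a difference of 4.14 points (exact permutation p = 0.4). In null cortex replicate 2 the Klk6 cells were then 105 of 814 Mog cells, in place of 85 of 604. With at least 3 Klk6 UMIs and no thinning the means were 8.43% and 6.03%, a difference of 2.40 (exact permutation p = 0.6). Without null cortex replicate 2 the difference was -3.76 points and without WT cortex replicate 3 it was -1.43. With at least 1 Klk6 UMI it was -1.25, so its direction depended on the libraries kept and on the Klk6 threshold.

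In null hippocampus the share was 3.13% (3 of 96, interval 1.07 to 8.79) and 1.74% (1.13 to 2.67), both above all 3 WT libraries. The difference of means was 1.5 points, with an exact permutation p of 0.2 where 0.1 is the smallest possible. Thinned to 2000 UMIs, with the cells chosen anew, the null libraries had 1.74% and 0.607% and overlapped with WT. The difference was then 0.624 points (exact permutation p = 0.6). The null hippocampal libraries were also deeper, with 7827 and 8136 median UMIs in Klk6-negative cells against 4649, 1528 and 6912 in WT. The genotype difference in cortex minus that in hippocampus was -0.855 points (exact permutation p = 0.8). With log2 of the shares it was -1.35 (exact permutation p = 0.23). The genotype difference was not shown to differ between the regions on either scale.

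Grin1 itself could hardly be read in these cells. The 255 Klk6 cells held 2 Grin1 UMIs in all, 1 each in WT cortex replicates 1 and 2, which is 1.3 CPM (counting interval 0.157 to 4.69). Interneurons of the 6 WT libraries had 117 to 235 CPM and those of the 4 null libraries 19.2 to 35.7 CPM, with no overlap, while in Klk6 cells a difference was not detectable at this depth.

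TdTomato, the reporter that the sort selected, was low in Klk6 cells. Its transcript had a UMI in 51.4% of Klk6 cells, 51.7% of Klk6-negative Mog cells and 94.4% of interneurons. It ran at 65.1 to 243 CPM (median 159.9) in Klk6 cells and 123 to 382 CPM (median 245) in Klk6-negative cells, lower in 7 of 7 libraries, and fell by 0.64 ± 0.14 (edgeR adjusted p = 6.94e-05), with overlapping ranges. Interneurons had 474 to 1056 CPM, above every library of Klk6 cells with at least 10 cells.

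Gene levels in Klk6 cells were compared between WT hippocampus (2 libraries) and WT cortex (3 libraries), to see whether the cells of the regions differ as well as their numbers. By edgeR 0 of 4034 genes were called (0%), with 61 at an unadjusted p under 0.05, and DESeq2 also called 0, with 20. Both counts are below a share of 0.05 of the genes tested. The WT hippocampus sums were small, at 83882 and 18767 UMIs from 15 and 10 cells in replicates 1 and 2. The lack of calls thus does not show that Klk6 cells of the regions are alike.

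By edgeR, Ptgds came nearest to a call. In Klk6 cells it was at 98.2, 249 and 0 CPM in replicates 1, 2 and 3 of the WT cortex, and replicates 1 and 2 of the WT hippocampus gave 1395 and 746 CPM. Both hippocampal libraries were above all 3 cortical ones, and the single null libraries lay the same way, at 190.5 CPM in cortex and 2811 CPM in hippocampus. The log2 change was 3.02 ± 0.63 (edgeR adjusted p = 0.0708). With the replicate number as a block it was 2.58 and called (edgeR adjusted p = 4.31e-05), the lowest p of the alternatives that kept both hippocampal libraries. It was also called with mitochondrial genes left out and with no filter on low counts. By DESeq2 it was 3.16 (adjusted p = 0.9999) and not called. Nor was it called by edgeR with library-size scaling (3.15, adjusted p = 0.15), with only the 2 groups compared (3.12, adjusted p = 0.999) or without WT cortex replicate 3 (2.54, adjusted p = 0.99996).

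The scaling bears on this comparison, since the median log2 change of all genes tested was -0.11 with TMM scaling and 0.02 with library-size scaling, a shift of 0.13. Without WT cortex replicate 1, WT cortex replicate 2 or WT hippocampus replicate 2, up to 3 genes were called, Ptgds among them each time, though the last of these settings has a lone hippocampal library.

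Counted by cell and split by genotype, a split chosen after seeing the data, 9 of 30 Klk6 cells of WT hippocampus (30%) and 4 of 116 of WT cortex (3.45%) had at least 5 Ptgds UMIs, beside 14.1% and 8.68% of Klk6-negative Mog cells of the same groups. In null libraries these were 7 of 23 (30.4%) and 3 of 86 (3.49%), beside 41.9% and 16.5%.

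Between genotypes the gene levels of Klk6 cells are values with no test, since 1 null library per region held at least 10 of them. In cortex Pmp22 was at 745 CPM in null replicate 2 and 186 ± 114 CPM in WT (SD, n = 3), and in hippocampus at 385 CPM and 119 ± 17.4 CPM (n = 2). Hapln2 was at 763 and 507 ± 159 CPM in cortex, and at 480.3 and 511 ± 31.2 CPM in hippocampus. Genotype and library cannot be told apart here.

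The 3 libraries with fewer than 10 Klk6 cells held 9 in all, which were pooled as a description. Hapln2 was at 493 CPM (counting interval 343 to 685) in these 9 cells and 29.2 CPM in 665 Klk6-negative cells of the same libraries. Apod was at 1971 against 526 CPM, S100b at 1169 against 148 CPM and Pmp22, with 7 UMIs, at 98.6 CPM (39.6 to 203) against 2.62 CPM. Of the 12 largest rises, Cdkn1c, with 3 UMIs, was lower here, at 42.2 CPM (8.71 to 123) against 107 CPM, and St3gal5 had 0 UMIs (0 to 51.9 CPM) against 10.0 CPM; both intervals hold the Klk6-negative level.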

How the data were processed

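UMIs were counted in single cells by 10x sequencing of sorted cells, in 4 matrices of 43348 features and 26987 barcodes. The authors aligned reads to mm10 with extended gene ends and made the deposited UMI count values with Cell Ranger (2.1.1 per the processing notes, 3.0.2 per the file headers), unnormalised. Barcode suffixes told 10 libraries apart, and their replicate numbers were matched by cell numbers. Coordinates are those of GENCODE for mm10.

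Members were selected on measured counts, and members and gene lists were chosen with earlier results of these data known. Counts were summed per library and class with at least 10 cells, in 7 libraries. edgeR 4.0.16 (quasi-likelihood, TMM, filterByExpr, library as a block, R 4.3.3) compared Klk6 cells with Klk6-negative and with Ptgds Mog cells, and regions in 1 model of 4 groups, with Benjamini-Hochberg adjustment. Genes were called at an adjusted p under 0.01 and a log2 change of at least 0.144. Shares were compared by two-sided exact permutation tests (scipy 1.17.1), with Wilson intervals. DESeq2 1.42.0 and the other alternatives are in the closing section. The procedure was tested on simulated data. Scrublet ran in scanpy 1.11.5 with Python 3.11.15, and tables used numpy 2.4.6, pandas 2.3.3 and matplotlib 3.10.9.

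Named genes were the markers and genes of the rule, Grin1 and the reporter, the 12 largest rises and 12 largest falls against Klk6-negative cells and 5 each against Ptgds cells (same direction in every library, at least 20 CPM in 1 class), the 10 nuclear genes with most UMIs and up to 4 of each of 23 lists by level or change; not all of these are given, and others were chosen after their values were seen. Across genes, the deviations of WT cortex and WT hippocampus sums with the same replicate number correlated at 0.837, 0.801 and 0.454 over 5473 genes, which are not independent replicates.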

Additional observations from a re-analysis of the deposited data

How the results depend on the processing

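Of the alternative values of the main results, 105 stayed within 1 SD of the libraries (shares) or 1.5 times the count (genes called), which allows large moves, 34 moved further and 4 reversed; for named genes 4537 kept direction and call, 283 lost a call, 73 gained one and 2 reversed. The cause was not tested unless stated.

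Against Klk6-negative cells, the 313 higher and 562 lower genes became 109 and 228 in WT libraries, 52 and 100 without the library as a replicate block, and 181 and 226 in cells of 2000 to 8000 UMIs, where 5 libraries were left instead of 7, so depth and number of libraries cannot be told apart. DESeq2 called 264 lower. Leaving out each library gave 174 to 374 higher and 300 to 508 lower, the lowest without null cortex replicate 2. WT libraries are fewer by construction. Hspa1a reversed, to 0.10 in WT libraries and 0.75 in cells of 2000 to 8000 UMIs.

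Against Ptgds cells, the 259 higher and 290 lower genes became 100 and 131 in WT libraries, 35 and 47 without the replicate block, and 124 and 117 in cells of 2000 to 8000 UMIs (4 libraries left). With no filter on low counts 143 were higher, and at an adjusted p under 0.05 443 were lower. Leaving out each library gave 163 to 273 higher (163 without null cortex replicate 2) and 197 to 292 lower.

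Between regions, 0 genes by edgeR (61 at an unadjusted p under 0.05; DESeq2 0) became 1 with mitochondrial genes left out, 2 with no filter on low counts, 1 with the replicate block and 5 under a stricter limit of 1000 genes and 10% mitochondrial UMIs, where WT hippocampus replicate 2 had too few cells. Leaving out each library gave 0 to 3: 3 without WT cortex replicate 1, 2 without WT cortex replicate 2 and 1 without WT hippocampus replicate 2. In this setting and under the stricter limit the lone hippocampal sample is assumed to vary like the other groups.

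The regional difference in share, -8.09 points and -8.09 within the replicate block, was -4.05 thinned to 1000 UMIs, -14.3 with Klk6 at least 1 and -1.14 over all kept cells, and ran from -10.2 to -6.41 leaving out each library. Thinned shares leave out cells below the depth and apply the rule anew to the rest, so their set of cells differs. The cortical genotype difference reversed to -1.25 with Klk6 at least 1 and to -1.43 within replicate numbers 1 and 2, and ran from -3.76 (without null cortex replicate 2) to 5.05 (without null cortex replicate 1); without WT cortex replicate 3 it was -1.43. The hippocampal genotype difference was 0.624 and 0.247 thinned to 2000 and 1000 UMIs, 3.36 with Klk6 at least 1 and 0.270 over all kept cells, and ran from 0.802 (without null hippocampus replicate 1) to 2.19 (without null hippocampus replicate 2).

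Not run were the regional comparison at 20 cells per sum and at Klk6 at least 3, which left too few libraries, and the fits of null against WT with their alternatives, since 1 null library per region held 10 Klk6 cells. Low Klk6 counts limit membership: cells of low depth can miss the threshold.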
